A study of Homo sapiens with 36 samples.

Results

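The cell body RNA of HT1080, a human fibrosarcoma line, was set against that of 5 other human cancer cell lines. Its 3 cell body arrays were 3 of the 18 cell body arrays of the series, and the other 15 came in groups of 3 from U87 and U251 (glioblastoma lines), DU145 (a prostate carcinoma line), MDA231 (a breast carcinoma line) and MDA435. Each line had been plated for 24 h on a porous filter, and the cell bodies were the material scraped from its upper face. The pseudopods scraped from the lower face of the same lines gave 18 further arrays, 3 a line, which served as a second look at each difference. All lines received 10% serum and no other agent. The medium was high-glucose DMEM for HT1080, U87 and U251 and RPMI-1640 for the other 3 lines, so medium and line cannot be told apart except between HT1080, U87 and U251. Every line is a single established line, and the labels do not say that the 3 arrays of a group came from separate cultures, so the p-values measure the spread between arrays, which may be technical. They say how HT1080 differed from these 5 lines and not how fibrosarcomas differ from other tumours.

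Fibrosarcoma cells are malignant relatives of fibroblasts, the cells that secrete and remodel the collagen-rich matrix of connective tissue. HT1080 cells are widely used to study invasion, because they secrete matrix metalloproteinases, carry urokinase receptors and migrate through basement membrane and collagen. Members of the TGF-beta family, such as the activins, bind pairs of serine/threonine kinase receptors at the surface and signal through SMAD proteins to matrix and growth-arrest genes. The aminopeptidases and neprilysin are zinc enzymes anchored in the plasma membrane that trim peptides outside the cell.

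Values are microarray intensities in linear units, and differences are on the scale of log2(intensity + 16), which understates the change of dim genes. Calls rest on limma fitted to 14942 genes, with a Benjamini-Hochberg adjusted p under 0.05. Against the equally weighted mean of the 5 lines, 2788 genes (18.7%) were higher in HT1080 cell bodies and 3048 (20.4%) were lower. Changes of at least 2-fold were seen in 843 of these (5.64% of those tested) upward and 803 (5.37%) downward. A stricter set was called with 1 sign against each of the 5 lines in turn, and it held 361 genes (2.42%) higher and 295 genes (1.97%) lower. In either direction, 39.1% of genes were called against the mean, 36% against U87, 42.5% against U251, 39.4% against DU145, 38.6% against MDA231 and 40.4% against MDA435. The median gene differed by -0.02. The 3 HT1080 cell body arrays correlated with each other at r between 0.987 and 0.990 across probe sets, and with the arrays of other lines at 0.908 to 0.935, the highest of these being with U87. Median intensity was between 24.2 and 26.7 in the HT1080 arrays and between 22.2 and 30.6 in the 15 others.

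Some arrays of the comparison lines stood apart from their groups. CDH1, the epithelial cadherin, was at 1778 in MDA231 replicate 2 and at 8.2 and 2.2 in the other MDA231 arrays. In MDA435 it was at 32.8, 1044 and 2463. SOX10, a neural crest and melanocyte factor, was at 2450, 1121 and 884 in the 3 MDA435 arrays, and at 29.5 or less in every other cell body array; MDA435 was isolated as a breast cancer line and is known for melanocyte genes. The main contrast was therefore also run without the 3 arrays high in CDH1 (MDA231 replicate 2 and MDA435 replicates 2 and 3), and without each line. In bulk arrays fewer cells of a type and less RNA per cell cannot be told apart.

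The 14 genes that stood furthest above every other line began with ANPEP and DHRS2 and had varied functions. They were chosen by the difference to the nearest line, so their lack of overlap with other lines follows from the choice. ANPEP (aminopeptidase N, also called CD13) had 2049.5, 1966 and 2094 in the 3 HT1080 arrays, against a lowest value of 1.5, a median of 3.8 and a highest of 13 in the 15 others (log2 difference 6.66, SE 0.14, adjusted p = 7.8e-16). All 3 HT1080 arrays were bright, and no array of another line was above the median intensity of the arrays. DHRS2, a short-chain dehydrogenase/reductase, had 3779, 3920.1 and 4324 against a lowest value of 1.6, a median of 9.7 and a highest of 32.5 (log2 difference 7.24, SE 0.13, adjusted p = 2.2e-16), the largest rise of all genes in this contrast. TRHDE, which cleaves thyrotropin-releasing hormone at the cell surface, had 639, 642 and 524 against a lowest value of 0.4, a median of 1.7 and a highest of 9.2 (log2 difference 5.02, SE 0.13, adjusted p = 7.9e-15). ADGRL4, an adhesion G protein-coupled receptor known from endothelium, had 1168, 1257 and 1196 against a lowest value of 0.5, a median of 1.5 and a highest of 9.9 (log2 difference 6.06, SE 0.12, adjusted p = 2.6e-16). In all 4 genes the HT1080 arrays were far above every other array, and the highest array of another line was DHRS2 at 32.5.

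INHBA encodes the subunit that forms activin A. It had 2743, 3452 and 3672 in HT1080, against a lowest value of 3.9, a median of 32.8 and a highest of 409 in the others, with U87 next at a mean of 279.5 (log2 difference 5.71, SE 0.44, adjusted p = 2.5e-08). HHIP, a membrane protein that binds hedgehog ligands, had 637, 1421 and 632 against a lowest value of 0.8, a median of 2.4 and a highest of 49.8 (log2 difference 5.16, SE 0.29, adjusted p = 4.9e-10). The second HT1080 array carried more than the other 2, and all 3 lay above every other array. EPB41L3 (protein 4.1B, which links membrane proteins to the cytoskeleton) had 1327, 1267 and 1322 against a lowest value of 0.5, a median of 2.1 and a highest of 36.5 (log2 difference 5.94, SE 0.13, adjusted p = 8.8e-16). SLC14A1, a urea transporter, averaged 947 against 14, NPFFR2, a neuropeptide FF receptor, 362 against 5.75, and the uncharacterised C16orf54 672 against 2.8. LINC01029, a long non-coding RNA, averaged 1836 against 27.1, and ACTL8, an actin-like gene of the testis, 727 against 8.44. Over the 14 genes, the difference to the nearest line was between 3.94 (NPFFR2) and 6.51 (ANPEP) in log2 units. Over all tested genes, 3.83% had 3 HT1080 arrays above the 15 others.

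The genes that stood furthest below every other line included a small heat shock protein, a lysosomal protease and an ERK phosphatase. HSPB1, the chaperone HSP27, had 2, 1.1 and 1.6 in the HT1080 arrays against a lowest value of 805, a median of 1308 and a highest of 3523 in the 15 others (log2 difference -6.47, SE 0.13, adjusted p = 6.1e-16). CTSC, the lysosomal dipeptidyl peptidase cathepsin C, had 3.9, 0.9 and 4.8 against a lowest value of 849, a median of 1675 and a highest of 2599.6 (log2 difference -6.46, SE 0.16, adjusted p = 6.2e-15). The 3 HT1080 arrays were near 0 for both, while the lowest array of any other line was at 805 (HSPB1). The only probe set named for HSPB1 is marked by the array's maker as able to hybridise to more than 1 transcript. NT5E (CD73), the surface enzyme that makes adenosine from AMP, had 15.4, 12.9 and 11.7 against a lowest value of 332, a median of 1676 and a highest of 4454 (log2 difference -5.60, SE 0.25, adjusted p = 2.3e-11). DUSP6, the phosphatase that turns ERK off and is itself an ERK target, had 8.9, 15 and 20.8 against a lowest value of 514, a median of 1396 and a highest of 2722 (log2 difference -5.50, SE 0.14, adjusted p = 1.3e-14). MICB, a stress-induced ligand of the natural killer receptor NKG2D, had 9.5, 8.4 and 9 against a lowest value of 400.4, a median of 837 and a highest of 2276 (log2 difference -5.22, SE 0.12, adjusted p = 3.2e-15). These 5 genes were chosen by the difference to the nearest line, so their lack of overlap with any other line follows from the choice.

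RPL39L, a ribosomal protein paralogue, was at 0.3, 0.3 and 0.4 in HT1080, against a lowest value of 139.7, a median of 272 and a highest of 676 (log2 difference -4.24, SE 0.20, adjusted p = 3.4e-11). ADM, the vasodilator peptide adrenomedullin, was at 8.3, 13.6 and 9.8 against a lowest value of 231, a median of 982 and a highest of 3070.5 (log2 difference -5.13, SE 0.22, adjusted p = 1.4e-11). The tetraspanins CD9 and TSPAN13 had some signal in HT1080: CD9 averaged 195 against 2881, and TSPAN13 62 against 2360.2. MARCKS, an actin-binding substrate of protein kinase C, averaged 5.1 against 1412, with DU145 next at 133. GAS2L3, which links actin to microtubules, averaged 6.27 against 667, UGT8, a ceramide galactosyltransferase, 32.6 against 737, and MEST, an imprinted gene, 19.4 against 1025. MSANTD4 averaged 9.73 against 914. The pseudogene PDCD6P1 averaged 3.3 against 1225 on a probe set that can cross-hybridise, so its value is uncertain. Below every line, 3.2% of all tested genes had no overlap between the 3 HT1080 arrays and the 15 others. In 16 of the 14942 tested genes all 3 HT1080 arrays were at or below 25.7, the median cell body intensity, while every other line averaged 100 or more. The opposite pattern, 3 HT1080 arrays at 100 or more with every other line at or below 25.7, was seen in 14 genes.

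**Figure D1:**
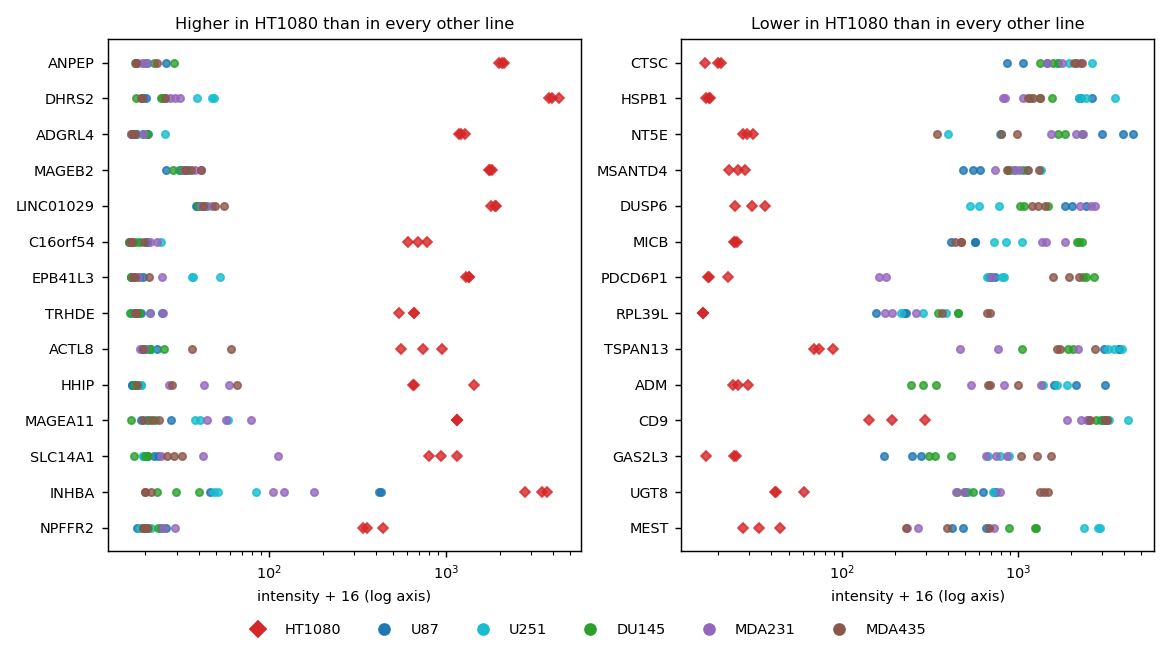
Intensity + 16 (log axis) on the 18 cell body arrays for the 14 genes furthest above every other line (left) and the 14 furthest below (right), 1 point per array and 1 colour per line, with HT1080 as red diamonds. The HT1080 diamonds do not overlap the other lines in any of the 28 genes, which follows from their choice by the difference to the nearest line. For HSPB1 the diamonds lie at 1.1 to 2 intensity units before the 16 is added.

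The promoters of 7 of these genes are shown because the text turns on them and because their CG dinucleotides, the sites of DNA methylation in human cells, differ greatly in number. Each is the window of 300 bases, 250 before to 50 after 1 RefSeq start per gene, on GRCh38.p14, written 5′ to 3′ on the gene's strand, with every CG in capitals. Among the lower genes, HSPB1 (chr7:76302423-76302722, plus strand) held 22 CG, CTSC (chr11:88337687-88337986, minus strand) 25, NT5E (chr6:85449833-85450132, plus strand) 37 and DUSP6 (chr12:89352452-89352751, minus strand) 19. Among the higher genes, ANPEP (chr15:89814803-89815102, minus strand) held 32, DHRS2 (chr14:23629865-23630164, plus strand) held 0 and INHBA (chr7:41703041-41703340, minus strand) held 1. These 7 do not stand for the rest: over the 11 of the 14 highest genes with a window the median was 21 CG (0 to 36), and over the 12 of the 14 lowest 18.5 (2 to 37).
HSPB1: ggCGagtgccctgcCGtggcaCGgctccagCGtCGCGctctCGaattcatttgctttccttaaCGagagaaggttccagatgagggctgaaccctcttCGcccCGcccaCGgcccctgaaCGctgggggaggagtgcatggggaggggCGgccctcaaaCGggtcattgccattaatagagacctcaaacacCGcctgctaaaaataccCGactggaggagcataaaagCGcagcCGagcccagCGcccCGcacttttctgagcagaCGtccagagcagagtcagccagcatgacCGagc
CTSC: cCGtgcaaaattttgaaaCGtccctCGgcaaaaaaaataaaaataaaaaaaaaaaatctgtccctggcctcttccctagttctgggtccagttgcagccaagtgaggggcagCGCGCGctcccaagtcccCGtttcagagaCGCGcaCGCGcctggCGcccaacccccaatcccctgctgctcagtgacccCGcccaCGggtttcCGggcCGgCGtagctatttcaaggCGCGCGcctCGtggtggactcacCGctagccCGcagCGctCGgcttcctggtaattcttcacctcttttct
NT5E: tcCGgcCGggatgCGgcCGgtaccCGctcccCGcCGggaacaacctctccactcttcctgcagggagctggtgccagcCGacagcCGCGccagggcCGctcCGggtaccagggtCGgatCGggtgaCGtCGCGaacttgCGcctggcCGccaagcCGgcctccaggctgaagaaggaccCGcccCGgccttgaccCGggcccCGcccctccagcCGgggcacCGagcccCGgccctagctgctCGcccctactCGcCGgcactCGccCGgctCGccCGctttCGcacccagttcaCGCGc
DUSP6: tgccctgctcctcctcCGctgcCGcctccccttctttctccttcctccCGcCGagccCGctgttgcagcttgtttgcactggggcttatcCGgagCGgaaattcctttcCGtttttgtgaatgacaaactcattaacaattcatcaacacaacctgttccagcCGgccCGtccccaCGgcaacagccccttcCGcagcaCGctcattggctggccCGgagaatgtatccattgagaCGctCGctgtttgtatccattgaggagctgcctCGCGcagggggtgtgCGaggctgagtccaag
ANPEP: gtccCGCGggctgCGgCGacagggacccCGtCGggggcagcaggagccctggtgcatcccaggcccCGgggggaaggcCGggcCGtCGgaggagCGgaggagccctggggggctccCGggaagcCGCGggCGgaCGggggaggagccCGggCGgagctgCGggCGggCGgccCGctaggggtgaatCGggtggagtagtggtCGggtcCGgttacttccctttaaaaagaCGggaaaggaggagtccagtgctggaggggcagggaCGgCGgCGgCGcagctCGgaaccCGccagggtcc
DHRS2: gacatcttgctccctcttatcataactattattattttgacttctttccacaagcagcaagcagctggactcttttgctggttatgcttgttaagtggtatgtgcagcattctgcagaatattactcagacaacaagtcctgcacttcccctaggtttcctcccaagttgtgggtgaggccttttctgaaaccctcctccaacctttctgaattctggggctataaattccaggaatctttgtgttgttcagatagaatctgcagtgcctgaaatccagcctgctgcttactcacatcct
INHBA: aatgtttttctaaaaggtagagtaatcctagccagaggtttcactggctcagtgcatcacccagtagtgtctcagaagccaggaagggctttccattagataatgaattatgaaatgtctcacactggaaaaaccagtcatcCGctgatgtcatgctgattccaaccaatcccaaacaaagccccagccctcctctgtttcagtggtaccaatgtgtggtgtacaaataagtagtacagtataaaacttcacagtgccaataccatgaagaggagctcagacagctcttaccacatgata

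Promoters were matched by symbol for 277 of the 361 genes higher than every line, for 241 of the 295 lower than every line and for 11949 of all 14942 tested genes. Windows with 15 or more CG made up 64.6% of the genes above every line and 84.6% of those below every line, against 75.5% of all tested genes with a window. Windows with 5 or fewer made up 16.97% of the genes above every line, 3.73% of those below and 11.98% of all. The medians were 22, 26 and 25 CG. The genes below every line thus had fewer CG-poor windows, by description and with no test. The medians of the most extreme genes above do not show this order. The search for CG, which reads the same on both strands, was decided after the gene sets were known. A gene below every line must have signal in all 5 other lines, while a gene above every line can have it in HT1080 alone. How far this difference between the sets shapes the CG counts was not tested. Methylation itself was not analysed here.

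**Figure D2:**
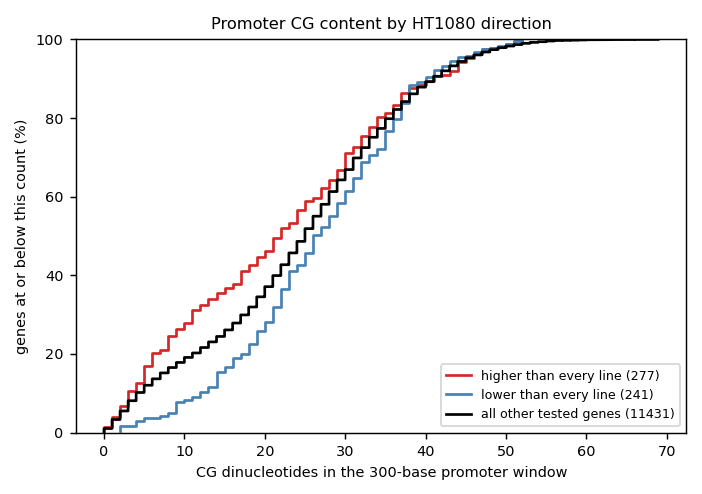
Cumulative share of genes (%) by the number of CG dinucleotides in the 300-base promoter window, for 277 genes higher in HT1080 than in every line (red), 241 lower than in every line (blue) and 11431 other tested genes (black). The blue line stays below the others at low counts, and 3.73% of its genes hold 5 or fewer CG against 16.97% of the red.

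The mesenchymal label of the line was compared with marker lists. These and the lists below were chosen with earlier results of these data known, so their counts describe and do not test. Over all tested genes 18.7% were called higher and 20.4% lower, the shares to set each list count beside. VIM, the mesenchymal filament vimentin, was at 3246, 3288 and 3927 in HT1080 and at 2673 to 5825 (median 3313) in the others, all 6 lines being bright and not called different (log2 difference -0.05, SE 0.13, adjusted p = 0.784). Of 24 tested mesenchymal markers, 13 were higher and 6 lower, with a median difference of 0.95 against -0.02 over all genes. CDH2, the neural and fibroblast cadherin, had 1006, 1409.9 and 1064 in HT1080 (log2 difference 2.51, SE 0.13, adjusted p = 1.4e-10), with means of 750.2, 1349 and 794 in U87, U251 and MDA435 and near 0 in DU145 and MDA231. SPARC, a secreted matrix protein of fibroblasts, averaged 3610.2 against 4226 in U87, 4513 in U251 and 2616 in MDA435, and was near background in DU145 and MDA231. CDH11, the fibroblast and osteoblast cadherin, averaged 747, below MDA231 at 1345, and its call was lost on its brightest unmarked probe set, 1 that the array's maker does not mark as able to hybridise to more than 1 transcript (log2 difference 0.51, adjusted p = 0.172 in limma). No marker was above every line. Some were low: NT5E as above, and PRRX1, a limb mesenchyme factor, at 4.2, 13.4 and 12.2 against 2.3 to 1403 (median 293) (log2 difference -3.34, SE 0.41, adjusted p = 5.4e-06). With U87 and U251 alone as the comparison, the split turned to 6 higher and 12 lower and the median to -0.35, so the excess over the 5 lines was not seen over these 2.

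Several epithelial markers were near 0 in HT1080, while others carried most of the list's signal. Of 34 tested, 2 were higher and 16 lower (18.7% and 20.4% over all genes), with a median of -0.79 and a largest rise of 2.09. Against U87 alone 9 were higher and 0 lower. The 5 members named here are those of largest change, and all are lower. Summed over the 35 on the array they were at 7314 to 8187 in HT1080, 1940.2 to 2094 in U87 and 28105 to 37165 in DU145, so HT1080 was not the lowest line. EPCAM, an epithelial adhesion molecule, was at 3.4, 12.4 and 8 in HT1080 and at 1 to 3737 (median 614) in the others (log2 difference -3.85, SE 0.65, adjusted p = 0.00017). KRT19, a simple-epithelium keratin, averaged 0.567 in HT1080, 0.4 in U87 and 2658 in DU145 (log2 difference -3.54, SE 0.59, adjusted p = 0.00015). SPINT2, a serine protease inhibitor of epithelia, averaged 1.8 against 2275 in DU145 (log2 difference -3.63, SE 0.48, adjusted p = 1.4e-05). The SPINT2 call was lost against U87 and U251 alone (log2 difference -0.161, adjusted p = 0.281 in limma). CLDN1, a tight junction claudin, averaged 20.3, below U251 and DU145 at 2181 and 2191. CDH1 was at 0.8, 1.2 and 0.4 in HT1080 and at similar levels in U87, and its call (log2 difference -2.85, SE 1.06, adjusted p = 0.0421) was lost in 18 of the 35 settings run for it. Without the 3 arrays high in CDH1 the list had 6 higher and 17 lower, and against U87 and U251 alone 10 higher and 8 lower. Glial and neural markers were lower in 11 of 16 and higher in 1, with a median of -0.91 that was -0.34 without MDA435. Their sum over 20 genes was 3329 to 3618 in HT1080, above DU145 (2862 to 2997) and MDA231 (2378 to 2849), and below U87 (3749 to 4477), MDA435 (10353 to 15299) and U251 (20848 to 23007). NES, the neural progenitor filament nestin, was below every line at 7.7, 1.4 and 5.3 against 14.9 to 2372 (median 183) (log2 difference -3.79, SE 0.37, adjusted p = 4.1e-07). SOX2, a stem cell factor, averaged 7.73 in HT1080 and 1879 in U251. GPM6B, a neural membrane protein, averaged 9.03 in HT1080 and 3474 in U251, and FABP7, a radial glia fatty acid-binding protein, 23.1 and 4003. Of 10 melanocytic markers 5 were lower and 2 higher; S100B averaged 1.97 in HT1080 and 2128 in MDA435. Blood cell markers, summed over 7 genes, were at 187 to 228 in HT1080 and at 139 to 2461 in the others.

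The basement membrane collagen chains COL4A1 and COL4A2 set HT1080 apart from all 5 lines, while other collagens did not move together. COL4A1 had 2173, 2932 and 3043 in HT1080 against a lowest value of 12.3, a median of 349.9 and a highest of 1030.1 in the others (log2 difference 3.40, SE 0.40, adjusted p = 3.3e-06), and its partner chain COL4A2 had 1206, 1339 and 1277 against a lowest value of 18, a median of 241 and a highest of 519 (log2 difference 2.57, SE 0.30, adjusted p = 3.7e-06). Both chains were above every other array. Of the other collagen IV chains tested, COL4A5 averaged 1137 in HT1080, below U251 at 1631, and COL4A6 61.7, below U251 at 1058. COL6A3, a chain of the beaded microfibrils, averaged 3264 in HT1080 (log2 difference 4.57, SE 0.23, adjusted p = 1.3e-10), below U87 at 4596 and above the other lines, which averaged 165 or less. COL5A2, of the fibrillar collagen V, averaged 42.4 against 774 (log2 difference -2.74, SE 0.17, adjusted p = 1.6e-09). COL8A1, of collagen VIII, averaged 137 against 1602 (log2 difference -2.47, SE 0.21, adjusted p = 6.7e-08). Of 23 tested chains 8 were higher, 7 lower, and the median was -0.29. Against U87 and U251 alone the split was 5 higher and 13 lower.

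Matrix glycoproteins were more often higher: 18 of 33, with 7 lower (18.7% and 20.4% over all genes) and a median of 0.86. THBS2, the matricellular thrombospondin-2, had 636, 1336 and 1150.5 in HT1080 against a lowest value of 20.2, a median of 49 and a highest of 250.8 in the others (log2 difference 3.53, SE 0.18, adjusted p = 1.5e-10), and SPOCK1, a testican proteoglycan, had 2004, 2357 and 2286 against a lowest value of 44.9, a median of 409 and a highest of 1439 (log2 difference 2.71, SE 0.19, adjusted p = 8.2e-09). These were the 2 members above every line. NID1, the nidogen that bridges laminin and collagen IV, averaged 509.8 in HT1080, 626 in U251 and 262 in DU145, and was near 0 in U87 and MDA231 (log2 difference 2.99, SE 0.10, adjusted p = 6.3e-13). LAMA4, a laminin chain of mesenchymal cells, averaged 905 against 259, with MDA435 next at 716 (log2 difference 2.92, SE 0.24, adjusted p = 4.5e-08), a call lost on its brightest unmarked probe set (log2 difference 0.12, adjusted p = 0.531 in limma). Against U87 and U251 alone the list had 13 higher and 11 lower with a median of -0.05.

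Proteases that cut this matrix were mixed. Of 29 metalloproteinases, ADAMTS proteases and TIMPs, 14 were higher and 6 lower (18.7% and 20.4% over all genes), with a median of 0.26. Without HT1080 replicate 2 the number higher was 8 and the median 0.28. Over all genes the number higher then fell from 2788 to 2087. MMP2, gelatinase A, had 1196, 1572 and 1254 in HT1080 (log2 difference 3.00, SE 0.18, adjusted p = 1.1e-09), below U87 at 2489.8 and above 330.1 in U251, with 41.3 or less on average in the 3 remaining lines. MMP16, a membrane-type metalloproteinase, averaged 807 with MDA435 next at 791, from which it was not called different (log2 difference 2.45, SE 0.23, adjusted p = 2.7e-07), and ADAMTS6 averaged 359 with U87 next at 275 (log2 difference 2.55, SE 0.18, adjusted p = 1e-08). ADAMTS1, which cleaves versican, was at 4.3, 2.7 and 1.2 in HT1080 against 0.7 to 1673 (median 289) (log2 difference -3.69, SE 0.29, adjusted p = 3e-08), and ADAM12 averaged 22.9 against 812 (log2 difference -2.70, SE 0.21, adjusted p = 2.7e-08). In the urokinase and serpin list 8 of 18 were higher and 6 lower. SERPINB5 (maspin) had 837, 639 and 537 in HT1080 against a lowest value of 1.4, a median of 9.1 and a highest of 106 (log2 difference 4.26, SE 0.40, adjusted p = 3e-07). TFPI, the tissue factor pathway inhibitor, had 14.1, 22.9 and 17 against a lowest value of 234, a median of 1011 and a highest of 2520.3 (log2 difference -4.66, SE 0.26, adjusted p = 4.9e-10), and its relative TFPI2 averaged 6.87 in HT1080, 5986 in U87 and 0.9 in MDA435 (log2 difference -3.92, SE 0.43, adjusted p = 1.8e-06). SERPINB7 averaged 285 in HT1080 and 878 in U87, and 10.3 or less in the remaining lines.

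Some collagen-binding integrins were among the higher adhesion receptors. ITGA2, ITGA10 and ITGA11 encode alpha chains that pair with beta 1 to bind collagen, and each was above every line. They were named for the size of their change and do not stand for all collagen-binding chains. ITGA2 had 3361, 3428 and 3612 in HT1080 against a lowest value of 442, a median of 915 and a highest of 2579 (log2 difference 1.93, SE 0.14, adjusted p = 1.4e-08). ITGA10 had 425, 734 and 606 against a lowest value of 36.1, a median of 59.5 and a highest of 319 (log2 difference 2.63, SE 0.22, adjusted p = 6.3e-08), and ITGA11 had 169.7, 234 and 222 against a lowest value of 15.9, a median of 21.1 and a highest of 113 (log2 difference 2.31, SE 0.18, adjusted p = 3.8e-08). No HT1080 array of the 3 genes overlapped another line. In all, 9 of 17 integrins were higher and 3 lower (18.7% and 20.4% over all genes), with a median of 0.83. Above every line were 4 of them, against 2.42% of all genes. The lower ones included ITGB4, the hemidesmosome chain, at 1, 15.6 and 16.3 (log2 difference -1.74, SE 0.41, adjusted p = 0.00263), a call lost on its brightest unmarked probe set (log2 difference -0.17, adjusted p = 0.451 in limma), and ITGA7, a laminin receptor chain, which averaged 10.2 against 557 in U251 (log2 difference -1.55, SE 0.13, adjusted p = 6.1e-08). Caveola proteins and surface proteoglycans were higher in 3 of 18 and lower in 5. GPC6, a glypican, had 663, 1828 and 1784 (log2 difference 3.31, SE 0.26, adjusted p = 2.7e-08), with the first HT1080 array inside the range of the others, 1.7 to 929 (median 108). CAVIN3, a caveolar coat protein, was below every line at 16.8, 18.4 and 12.7 against a lowest value of 175, a median of 465 and a highest of 903 (log2 difference -3.80, SE 0.19, adjusted p = 7.4e-11). Among 24 actin and contractile genes, 7 higher and 4 lower, TPM2, the beta tropomyosin, was above every line at 2044, 1740.4 and 2432 against a lowest value of 32, a median of 90.9 and a highest of 872 (log2 difference 3.84, SE 0.18, adjusted p = 4.4e-11).

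The TGF-beta family had the second largest share of higher members among the lists of over 20 genes. Of 41 tested members 24 were higher and 2 lower (18.7% and 20.4% over all genes), with a median of 0.68, and 8 were above every line. INHBA, described above, led them. GDF15, a stress-induced ligand, had 3199, 3088 and 2966 in HT1080 against a lowest value of 66, a median of 269 and a highest of 568 in the others (log2 difference 3.68, SE 0.25, adjusted p = 4.9e-09). BMP2, a bone morphogenetic protein, had 331, 255 and 367 against a lowest value of 3.7, a median of 35 and a highest of 190.2 (log2 difference 2.41, SE 0.25, adjusted p = 7.7e-07). TGFBR3, the co-receptor betaglycan, had 1500.2, 1654 and 1408 against a lowest value of 86.9, a median of 277 and a highest of 912 (log2 difference 2.44, SE 0.17, adjusted p = 5.4e-09). LTBP3, which anchors latent TGF-beta in the matrix, had 1084, 976 and 1087 against a lowest value of 50.4, a median of 200.5 and a highest of 579.5 (log2 difference 2.35, SE 0.33, adjusted p = 2.7e-05). In none of these 4 did the HT1080 arrays overlap those of another line. Without HT1080 replicate 2 the list had 21 higher and 2 lower, and against U87 and U251 alone 24 higher and 4 lower. The values of ANPEP, GDF15, LTBP3 and IL1A come from marked probe sets, and the unmarked probe sets of these genes were dim in all lines, at means of 0.9 to 23.7 in HT1080 and 0.82 to 23.6 in the others. HSPB1, MME, BAX, CDKN1A, EPCAM, MYC, CDC45, FOXD1, SSX1 and ADAMTS1 were among the genes with marked probe sets only. So were CDH1, FAP, IRF7, MANSC1, SERPINB7, SPINT2, TMEM204 and VIM. No unmarked probe set could be set against them.

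Targets of p53, the transcription factor that DNA damage and other stress activate, were more often higher than lower. Of 24 tested, 20 were higher and 0 lower, against 18.7% higher over all genes, with a median of 1.20. HT1080 was the highest line in 19, against 12.4% of all tested genes, and 12 were above every line. GDF15 belongs here too. CDKN1A, the cyclin-dependent kinase inhibitor p21, had 1496, 1166 and 1229.9 in HT1080 against a lowest value of 102, a median of 512 and a highest of 1096 (log2 difference 1.50, SE 0.15, adjusted p = 6e-07). ZMAT3, an RNA-binding zinc finger protein of this response, had 1302, 1799 and 1898 against a lowest value of 212, a median of 507 and a highest of 961 (log2 difference 1.87, SE 0.21, adjusted p = 1.8e-06). BAX, which permeabilises mitochondria in apoptosis, had 716, 526 and 541 against a lowest value of 71.2, a median of 252 and a highest of 413 (log2 difference 1.59, SE 0.13, adjusted p = 3.7e-08). In all 3 genes every HT1080 array was above every other array. SPATA18, which acts in mitochondrial quality control, averaged 85.3 in HT1080, close to U87 at 81.2, and 12.5 or less elsewhere. Against U87 alone 15 of the 24 were higher, where 19.6% of all genes were. The intensities summed over the 26 genes on the array ran between 23107 and 24859.7 in HT1080, and between 9193 (MDA435) and 13581 (U87) in the 15 others. Without the 3 arrays high in CDH1 23 were higher, and against U87 and U251 alone 21. On unmarked probe sets, which 17 of the 24 have, 13 were higher and 0 lower, where 14 of those 17 were higher above.

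DNA replication genes went the other way. Of 40 tested, 0 were higher and 26 lower, against 20.4% lower over all genes, with a median of -0.61. HT1080 was the lowest of the 6 lines in 25, against 14.5% of all tested genes, and 10 were below every line. RPA3, a subunit of the single-strand binding complex, had 179.6, 186 and 265 in HT1080 against a lowest value of 351, a median of 801 and a highest of 2156 (log2 difference -1.88, SE 0.18, adjusted p = 3.9e-07). POLE2, a DNA polymerase epsilon subunit, had 202, 168 and 166 against a lowest value of 294, a median of 572 and a highest of 1305 (log2 difference -1.68, SE 0.13, adjusted p = 2.3e-08). CDC6, which loads the replicative helicase, had 162, 152 and 148 against a lowest value of 254, a median of 375 and a highest of 554 (log2 difference -1.25, SE 0.17, adjusted p = 2.5e-05), and CDC45, part of the active helicase, had 108, 114 and 99.8 against a lowest value of 134, a median of 270.0 and a highest of 435 (log2 difference -1.24, SE 0.17, adjusted p = 1.6e-05). TYMS, thymidylate synthase, had 1663, 1473 and 1473 against a lowest value of 2182, a median of 3134 and a highest of 5125 (log2 difference -1.14, SE 0.14, adjusted p = 5.4e-06). In these 5 genes the HT1080 arrays were below all others. The number lower was 25 against U87 and U251 alone and 24 without HT1080 replicate 2. Of 28 cyclins, cyclin-dependent kinases and inhibitors, 16 were lower and 4 higher (20.4% and 18.7% over all genes). CDKN3, a phosphatase of cyclin-dependent kinases, was below every line at 253, 179 and 300.1 against a lowest value of 375, a median of 738 and a highest of 1339 (log2 difference -1.57, SE 0.18, adjusted p = 2.5e-06), and CCNA1, the testis cyclin A1, averaged 17.7 in HT1080 and 549 in U251 (log2 difference -1.41, SE 0.13, adjusted p = 1.4e-07). CDKN2A, which encodes p16, and its chromosome 9 neighbour MTAP, a methionine salvage enzyme, were both low in HT1080 and in U87. MTAP had 5.4, 3.1 and 5.4 in HT1080 against 2.8 to 492 (median 199.9) in the others, with U87 at 4.87 and U251 at 474 (log2 difference -2.62, SE 0.46, adjusted p = 0.00022). CDKN2A averaged 22.5 in HT1080, 26.4 in U87 and 1354 in DU145 (log2 difference -1.75, SE 0.20, adjusted p = 2.1e-06). The CDKN2A call was lost against U87 and U251 alone (log2 difference -0.212, adjusted p = 0.426 in limma).

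**Figure D3:**
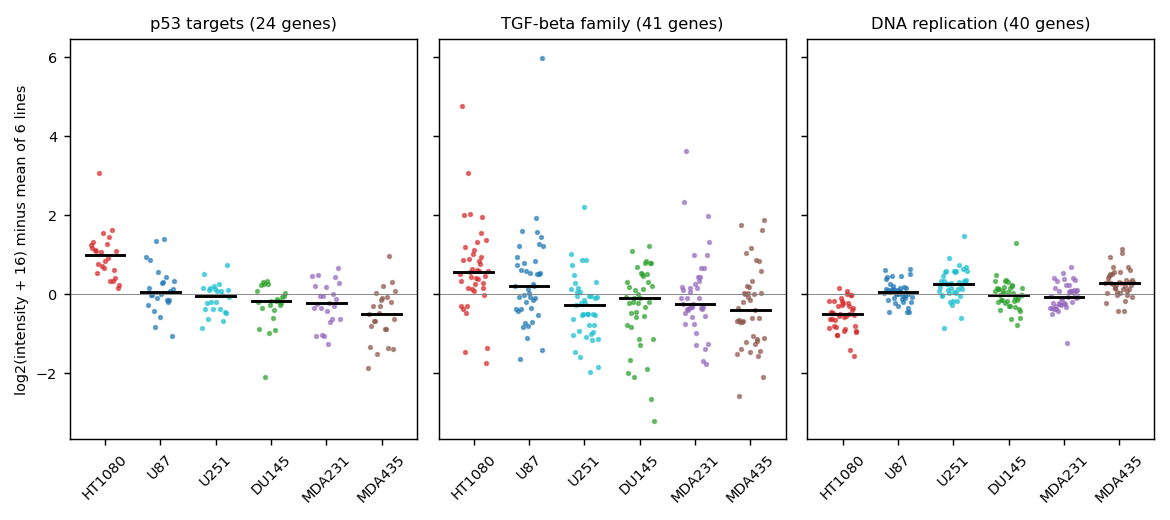
Each point is 1 tested gene in 1 line, as the line's mean log2(intensity + 16) minus the mean of the 6 lines, for 24 p53 targets, 41 TGF-beta family and 40 DNA replication genes, with the median as a black bar. In HT1080 (red, left in each panel) the p53 targets all lie above 0, and most replication genes lie below 0.

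Genes of the RAS family, kinases of the MAPK cascade, which carries growth factor signals through ERK, and targets of the cascade made 1 list and did not move together: 9 of 30 were higher and 7 lower, with a median of 0.04. DUSP6 fell furthest. EREG, the EGF receptor ligand epiregulin, was at 1.3, 1.2 and 2.9 in HT1080 against 12.9 to 4058 (median 473) (log2 difference -4.66, SE 0.47, adjusted p = 7.2e-07). MYC was below every line at 163, 122 and 113 against 169 to 859 (median 383) (log2 difference -1.51, SE 0.14, adjusted p = 3e-07). SPRY1, an inhibitor of receptor tyrosine kinase signalling, averaged 55.9, close to U87 at 56.9. DUSP5, a nuclear ERK phosphatase, was higher at 1364, 1022 and 1014 against 102 to 1189 (median 569) (log2 difference 1.46, SE 0.15, adjusted p = 9.3e-07), with the lower HT1080 arrays inside the range of the others. DUSP6 and DUSP5, both ERK phosphatases, thus differed from the other lines in opposite directions.

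IL1A, IL1B and IL24 were high, though more members of their list were lower than higher, and the Wnt antagonist DKK1 was low. IL24 had 2714, 2047 and 1904 in HT1080 against a lowest value of 4.9, a median of 286 and a highest of 971 (log2 difference 3.51, SE 0.29, adjusted p = 6.3e-08), and IL1A had 402, 290.2 and 336 against a lowest value of 2.2, a median of 20.6 and a highest of 150.5 (log2 difference 2.95, SE 0.27, adjusted p = 2.1e-07). Both were above every other array. IL1B, interleukin 1 beta, averaged 3428 in HT1080, 5561 in U87 and 229 or less in the 4 remaining lines (log2 difference 3.59, SE 0.19, adjusted p = 2.6e-10). IL18 averaged 4.9 in HT1080 and 1021 in U251 (log2 difference -3.12, SE 0.28, adjusted p = 1.2e-07). Of 31 chemokines, interleukins and colony-stimulating factors 7 were higher and 12 lower (18.7% and 20.4% over all genes). Their median was -0.40, with a largest fall of -3.48 and a largest rise of 3.59. DKK1 had 58.3, 69.4 and 47.8 in HT1080 against a lowest value of 124, a median of 2507 and a highest of 4134 (log2 difference -4.27, SE 0.14, adjusted p = 4.5e-13), below every other array. WNT5A, a ligand of non-canonical Wnt signalling, averaged 2633 in HT1080, 3728 in U87 and 467 or less in the 4 remaining lines (log2 difference 3.33, SE 0.33, adjusted p = 6e-07). DKK3 averaged 1334, below MDA435 at 2148. Of 30 Wnt genes 4 were higher and 6 lower, so most passed in neither direction.

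HLA class II genes, which present antigens, were mostly lower in HT1080 than in the mean of the other lines, but not than in each. Of 10 genes 8 were lower and 0 higher (20.4% and 18.7% over all genes), with a median of -1.37. Their sum was 1520 to 2252 in HT1080, overlapping DU145 (1713 to 2309), above U251 (156 to 179) and below U87, MDA231 and MDA435 (3705 to 24717). HT1080 was the lowest line in 0 members, and 6 were higher and 0 lower than in U251. HLA-DQB1 had 1.7, 2.7 and 1.6 in HT1080 against 0.9 to 2414 (median 124) (log2 difference -3.43, SE 0.19, adjusted p = 4.4e-10), and CD74, the invariant chain, had 32.3, 56.3 and 46.2 against 15.2 to 2311 (median 254) (log2 difference -2.34, SE 0.24, adjusted p = 7.2e-07). HLA-DRA averaged 106 in HT1080, 7.63 in U251 and 3263 in MDA435. Against U87 and U251 alone 2 members were higher and 4 lower. Without MDA435 5 were lower. HLA class I and interferon-response genes were lower in 16 of 43 and higher in 9, or in 5 without HT1080 replicate 2. BST2 (tetherin) averaged 13 in HT1080, 15 in U87 and 2994 in U251 (log2 difference -3.33, SE 0.42, adjusted p = 8.8e-06), and IRF7, an interferon regulatory factor, 6.6, 66.9 and 4.6 (log2 difference -2.01, SE 0.23, adjusted p = 2.3e-06).

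Cancer-testis antigens are germ cell genes expressed in many tumours. Of 23 on the array 17 were tested, and 12 were higher and 3 lower (18.7% and 20.4% over all genes). The median was 2.13 and 5 were above every line. Members bright only in HT1080, such as MAGEB2, passed the filter of 25.7 through HT1080 itself, which raises these shares. MAGEB2 had 1749, 1803 and 1712 in HT1080 against a lowest value of 10.2, a median of 17.5 and a highest of 25.3 (log2 difference 5.71, SE 0.11, adjusted p = 2.3e-16), and MAGEA11, an androgen receptor coregulator, had 1128, 1133 and 1131 against a lowest value of 0.5, a median of 7.9 and a highest of 63.2 (log2 difference 5.25, SE 0.17, adjusted p = 1.6e-13). CTAG2 had 2883, 2206 and 2388 in HT1080 and averaged 1451 in MDA435 and 1.67 or less in the 4 remaining lines. SSX1 averaged 1352 in HT1080 and 746 in U251 (log2 difference 3.60, SE 0.16, adjusted p = 1.5e-11), and PRAME 720.4 in HT1080 and 570.5 in MDA435. Probe sets of such families can share sequence between members. On unmarked probe sets, which 12 of the 17 have, 6 were higher and 3 lower with a median of 0.54, where 7 of those 12 were higher above. The summed signal of the 23 genes on the array was 14367 to 15288.5 in HT1080, 11395.5 to 14735 in MDA435 and 8841 or less in the remaining lines.

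Peptidases and blood or vessel genes were collected into a pair of lists after the values had been seen. Their counts, like those of the other lists, describe and do not test. Of 12 surface peptidases 4 were higher and 4 lower. MME (neprilysin) had 1897, 2456 and 2333 in HT1080 against a lowest value of 0.7, a median of 9.1 and a highest of 616 (log2 difference 5.54, SE 0.12, adjusted p = 8.8e-16), with U87 next at 547, so that ANPEP, MME and TRHDE were all above every line. CPM, carboxypeptidase M, was below every line at 3.4, 3.6 and 2.8 against 9.9 to 1421 (median 47.4) (log2 difference -2.72, SE 0.20, adjusted p = 1.7e-08), and FAP, the fibroblast activation protein, averaged 6 in HT1080 and 807 in U87. Of 22 endothelial and haematopoietic genes on the array 15 were tested, and 10 were higher and 3 lower, with 7 above every line. Members bright only in HT1080, such as FLI1, passed the filter through HT1080 itself, which raises these shares. FLI1, an ETS factor of endothelium and blood, had 348, 341 and 363 against a lowest value of 1.2, a median of 5.2 and a highest of 27.1 (log2 difference 4.03, SE 0.12, adjusted p = 5.8e-14). HCLS1, a cortactin relative of blood cells, had 910.0, 826 and 861 against a lowest value of 14.8, a median of 25.4 and a highest of 88.2 (log2 difference 4.17, SE 0.11, adjusted p = 7.9e-15), and TMEM204, an endothelial membrane protein, had 560.3, 463 and 439 against a lowest value of 17.6, a median of 23 and a highest of 33.4 (log2 difference 3.64, SE 0.11, adjusted p = 1.1e-13). The endothelial markers CDH5, VWF and CLDN5 did not reach the filter in any line.

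Among positional and mesodermal transcription factors 14 of 38 were higher and 6 lower. SIX2, a factor of kidney and limb mesenchyme, had 202, 241 and 348 in HT1080 against a lowest value of 9.9, a median of 29.3 and a highest of 178 (log2 difference 2.37, SE 0.20, adjusted p = 7.7e-08). FOXC2, of paraxial mesoderm and lymphatic vessels, averaged 239 in HT1080 and 195 in U87 (log2 difference 2.14, SE 0.16, adjusted p = 2.3e-08). FOXD1, of kidney stroma, averaged 1111 and 862 (log2 difference 2.31, SE 0.37, adjusted p = 9.1e-05). TBX3, a limb and heart T-box factor, averaged 491 in HT1080 and 303 in MDA435 (log2 difference 2.35, SE 0.69, adjusted p = 0.0122), and IRX2 76.2 and 38.5 (log2 difference 1.97, SE 0.13, adjusted p = 2.6e-09). In the metabolic lists ALDH1L1, a folate enzyme, was above every line at 227, 238 and 207 against a lowest value of 5.7, a median of 21.9 and a highest of 60.0 (log2 difference 2.56, SE 0.20, adjusted p = 2.4e-08). NNMT, nicotinamide N-methyltransferase, averaged 1804, below DU145 at 3129.8. IDH1, cytosolic isocitrate dehydrogenase, was at 1294, 1167 and 1328 in HT1080 and at 564 to 1924 (median 1613) in the others and was not called (log2 difference -0.03, SE 0.12, adjusted p = 0.887), while mitochondrial IDH2 was lower at 121, 172 and 170.0 against 81.5 to 881 (median 420.4) (log2 difference -1.29, SE 0.20, adjusted p = 7.6e-05). Glycolysis genes (6 higher and 5 lower of 27), ferroptosis and glutathione genes (6 and 4 of 32), growth factors (5 and 6 of 26) and receptor tyrosine kinases (8 and 7 of 30) were near the shares of all genes, and without HT1080 replicate 2 the receptor tyrosine kinases had 4 higher. Against U87 and U251 alone, glycolysis genes had 3 higher and 12 lower (median -0.29). Growth factors then had 4 and 12 (median -0.48), ferroptosis genes 4 and 6, and receptor tyrosine kinases 8 and 6. Of all 14942 genes, 3526 were higher and 3223 lower in that comparison. GAPDH and ACTB were not called, at means of 3401 against 3842 and 4034 against 4638 (adjusted p = 0.55 and 0.291 in limma).

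**Figure D4:**
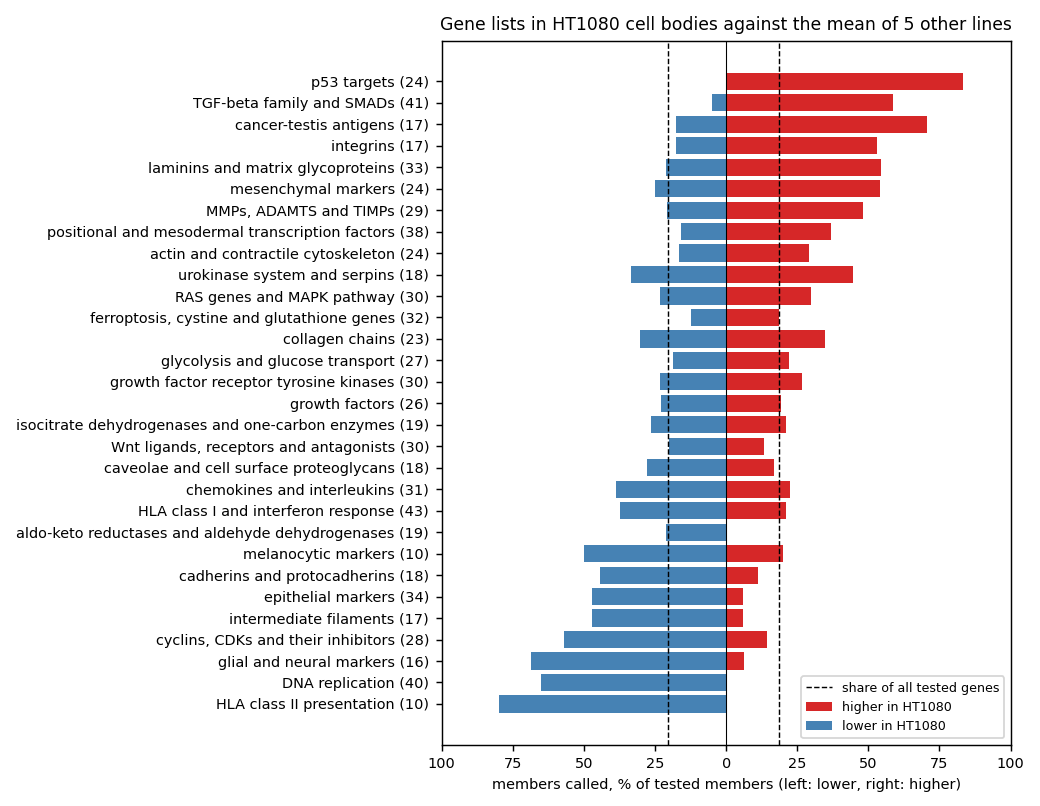
Share of each list's tested members called higher (red, to the right) or lower (blue, to the left) in HT1080 cell bodies, for the 30 lists with 10 or more tested members (number in brackets), without the 2 lists collected after the values had been seen, with dashed lines at the 18.7% and 20.4% of all tested genes. The p53 targets have the largest share higher and no member lower, and HLA class II, DNA replication and aldo-keto reductase and aldehyde dehydrogenase genes have no member higher. The lists shown were chosen with earlier results of these data known.

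The pseudopod arrays, from the lower filter face of the same lines, gave the same contrast on arrays not used above. There 2636 genes (17.6%) were higher in HT1080 and 2654 (17.8%) lower. Of the 656 genes apart from every line in cell bodies, 617 (94.1%) were called with the same sign in pseudopods and 6 had the opposite sign. HSPB1 averaged 2.6 in HT1080 pseudopods and 2221 in those of the other lines (log2 difference -6.79), and DHRS2 4865 and 23.3 (log2 difference 7.07). The p53 target list had 22 higher and 0 lower in pseudopods, and DNA replication 0 higher and 26 lower. Both fractions come from the same lines, so this repeats the measurement and adds no further lines.

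A direct test of the difference between fractions called 16 genes (0.107%) with a larger value and 71 (0.475%) with a smaller value in pseudopods than in cell bodies. Genes entered by their cell body signal alone, so a gene bright only in pseudopods was not tested. How far this shapes the counts was not tested. The fit did not pair the cell body and pseudopod arrays of a line. ITGBL1, an integrin beta-like secreted protein, had HT1080 minus other lines at 3.22 in cell bodies and 0.93 in pseudopods (difference -2.29, SE 0.20, adjusted p = 2.9e-08 in limma). ANPEP was at 6.66 and 4.59 (difference -2.07, adjusted p = 1.1e-07 in limma). It had 597, 352 and 401 in the HT1080 pseudopod arrays, so it was bright in both fractions and lower in the pseudopods. SUSD5 and ADAM21 also differed less in pseudopods, with differences of -2.09 and -2.03. TGFBI, a TGF-beta-induced matrix protein, changed sign, at -0.77 in cell bodies and 0.92 in pseudopods (difference 1.69, SE 0.37, adjusted p = 0.0241 in limma). With a pseudocount of 1 the number smaller in pseudopods was 5 and the number larger 0.

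**Figure D5:**
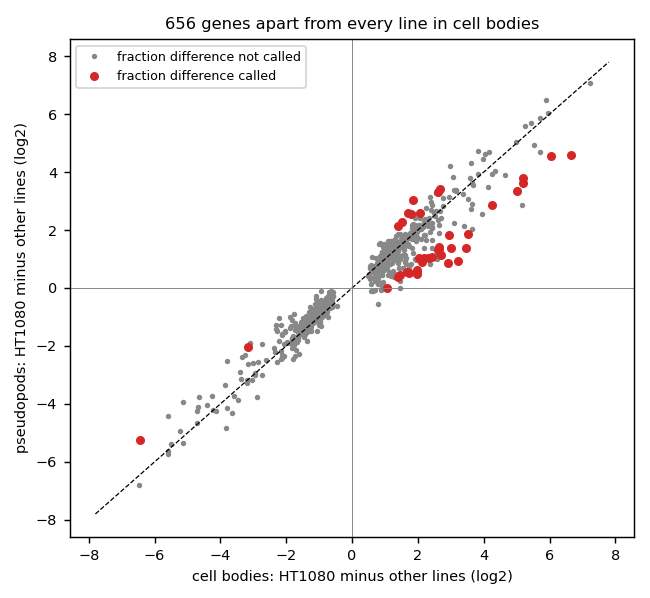
HT1080 minus the mean of the 5 other lines (log2) in pseudopods against the same in cell bodies, for the 656 genes apart from every line in cell bodies, with the 39 called for a fraction difference in red and equality dashed. Most genes lie along the dashed line, and ANPEP, at 6.66 in cell bodies, lies below it at 4.59.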

How the data were processed

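RNA of the cell body and pseudopod fractions of 6 lines was measured on 36 Affymetrix HG-U133 Plus 2.0 arrays, from 100 ng of total RNA amplified and biotin-labelled in 2 cycles, per the labels' protocols. The deposited values are linear intensity values for 54593 probe sets, and RMA and Partek are named, with no role, per the submitters' processing notes. RMA gives log2 values, so which program made these intensities stays unknown. Means trimmed by 2% at both ends lie between 149.18 and 149.59 in all arrays, so the arrays are scaled to a common mean.

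From these, log2(intensity + 16) was computed. Of the probe sets 41074 carry 1 symbol in the platform annotation, 1798 several and 11721 none, and only the first were named, with symbols updated through RefSeq (GRCh38.p14). Each of 19775 genes took its probe set of highest mean over all arrays, and 14942 were tested, those whose highest cell body group mean reached 25.7, the median. limma 3.58.1 in R 4.3.3 fitted 6 group means to the 18 cell body arrays (12 residual degrees of freedom), with contrasts of HT1080 against the mean of the other lines and against each line. Pseudopods were fitted alike, and the fraction difference on 36 arrays. Calls use Benjamini-Hochberg adjusted p under 0.05 over all tested genes. Precision is limited by 3 arrays a group. With lines as units, 1 line against 5, an exact permutation could not go below p = 0.167, so no test over lines was made.

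Alternatives were other pseudocounts, scalings, filters and probe set rules, array weights, a replicate block, and fits without a line or an array. Named genes are the 14 largest on each side by the difference to the nearest line, the 6 largest by mean difference, up to 5 of each of 36 lists, 4 on each side by fraction difference, and some fixed by name; not all are printed. Members and lists were chosen with earlier results of these data known, and 2 lists after the values were seen. Some named items are not reported here. Promoters and figures were made in Python 3.11.15 with matplotlib 3.10.9.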

Additional observations from a re-analysis of the deposited data

Results flagged for a closer look

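A difference between fractions was called for 18 of the genes described, 14 with a smaller and 4 with a larger value in pseudopods. The largest 4 on each side were named by this same test, and others were named for a large difference in cell bodies. The counts therefore follow in part from the choice of genes. Over all tested genes 0.475% were called smaller and 0.107% larger in pseudopods. Each value here is HT1080 minus the other lines in pseudopods, less the same in cell bodies, on the log2 scale, from the limma fit on 36 arrays (all adjusted p under 0.05 over all genes). Of the genes higher in HT1080 cell bodies, the value was -2.29 for ITGBL1, -2.09 for SUSD5, -2.07 for ANPEP, -2.03 for ADAM21, -1.89 for CDH11, -1.89 for NID1, -1.67 for TRHDE and -1.66 for THBS2. It was -1.57 for SLC14A1, -1.49 for ADGRL4, -1.47 for SERPINB7, -1.40 for C16orf54, -1.32 for CDH2 and -1.30 for ITGA10. All 14 stayed higher in HT1080 than in the other lines on average in pseudopods. The value was positive for LOC101928697 (1.18), which was already higher in cell bodies, and for MANSC1 (1.19) and CTSC (1.22), which were lower in HT1080 in cell bodies. For TGFBI (1.69) the sign turned. CDH2 and ITGA10 were the closest to the threshold, with adjusted p = 0.0423 and 0.0387 in limma. No explanation was tested.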

How the results depend on the processing

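Of 128 named genes called in cell bodies, 110 kept the call and sign in every setting run for them. That was all 36 settings for 92 genes and 35 for 18, which had marked probe sets only or did not reach the filter at 100. Leaving out 1 array gave 2087 to 2962 genes higher and 2250 to 3205 lower, and 261 to 381 above and 210 to 299 below every line, the low ends all without HT1080 replicate 2. Calls against single lines ran 4378 to 5845 for U87, 5306 to 6738 for U251, 4904 to 6294 for DU145, 4735 to 5967 for MDA231 and 5026 to 6552 for MDA435. Without U87 593 genes were above and 521 below every remaining line, without MDA231 549 were above, and with U87 and U251 alone 1688 and 1303, since fewer lines must be passed. Array weights gave 455 below every line. For the fraction difference, a pseudocount of 1 gave 0 larger and 5 smaller in pseudopods, a pseudocount of 64 gave 35 and 127, and leaving out MDA231 and MDA435, chosen after seeing the data, gave 28 and 110; the cause was not tested. Same-numbered arrays did not deviate together (1 of 15 pairs over 0.1, from -0.209 to 0.104), and a replicate block gave 2759 higher and 3002 lower, with 354 and 284 apart from every line.

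VIM, not called, turned to 0.00366 with quantile normalization, 0.0613 without U87 and 0.0253 without U251. IDH1, not called, turned to 0.0535 with the mean of all probe sets, 0.0232 with array weights, 0.0778 without U87, 0.0926 without DU145, 0.0731 without MDA435, 0.226 against U87 and U251 alone and 0.00237 without the 3 arrays high in CDH1. Without 1 array it ran between -0.0631 (HT1080 replicate 3) and 0.0285 (HT1080 replicate 2), with 0.000822 without MDA231 replicate 2. SPARC turned to -0.265 against U87 and U251. Without marked probe sets ANPEP turned to -0.269 and LTBP3 to -0.0405, GDF15 and IL1A lost their calls, since only dim probe sets remain, and CDH11, LAMA4 and ITGB4 lost theirs.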
